A study of Drosophila melanogaster with 6 samples.

Results

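Neuropeptides and peptide hormones are short signalling molecules that neurons and endocrine cells cut from larger precursor proteins. The peptides are stored in dense core vesicles, and after release most of them act on G protein-coupled receptors of other cells. In the fly head they set daily rhythms of activity, sleep, feeding, water balance and stress responses. Transcripts of 34 of 36 listed precursor genes were found among the 15886 rows of the expression table. The genes come from a list of symbols, without the insulin-like peptides, and were matched by FlyBase ID. The IDs of Nplp2 and Pburs in the name table matched no row, and these genes are not analysed here.

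RNA came from adult Drosophila melanogaster of 2 groups with 3 libraries each, collected on day 7 after RNA interference was induced with RU486 in the food. All flies carried TubGS, a drug-inducible GeneSwitch driver with a tubulin promoter, which is active in many cell types and not in neurons alone. The RNAi-GLAD group (TubGS>RNAi-GLAD) is called GLAD here. The RNAi-Ctrl group (TubGS>RNAi-GFP), with a construct against a protein that flies lack, is called control. The labels name the tissue as head, while the protocol speaks of 100 brains per sample. The gene targeted by GLAD, the sex of the flies and their age beyond the day of induction are not stated in the sources used here.

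All 8 photoreceptor markers lay between 247 and 26327 FPKM (fragments per kilobase of gene and per 1 M fragments of the library), and the rhodopsin gene ninaE ranked at 1 of all rows, so every library held transcripts of the eye. Library totals, read from the steps between low values, were 22.1 to 29.5 M fragments. The libraries numbered 3 stood apart from their groups. Whether their labels were exchanged was not tested, since the target of GLAD is not named, and every value from all 6 libraries holds only as labelled. Without both of them limma called 527 of 9661 genes, and for 522 of these (99.1%) the sign was opposite between the libraries labelled GLAD 3 and control 3. That count was 1 without control 1 or without control 2, 329 without GLAD 1 and 149 without GLAD 2. Each comparison is therefore given for all 6 libraries and for the 4 numbered 1 and 2, whose directions rest on the labels of those 4. It is not stated whether replicates were separate cultures of flies, so a p-value reflects the spread between samples, which could be technical.

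The 32 peptide genes with any signal covered more than 3 orders of magnitude. Nplp3, a precursor known from peptidomics, was the most abundant, with 1755, 1839 and 1353 FPKM in controls 1, 2 and 3 and 1395, 1961 and 1397 FPKM in GLAD 1, 2 and 3. It held rank 43 in the whole table, and its range did not overlap that of any other member. Next came Dsk (mean 180 FPKM), which encodes the cholecystokinin-like drosulfakinins that curb feeding, and CCHa2 (134.9 FPKM), a nutrient-linked peptide of brain, gut and fat body. Ms (118 FPKM), the muscle inhibitor myosuppressin, and Pdf (117 FPKM), the output peptide of clock neurons, followed. Each of these 4 genes overlapped its neighbour in the order.

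A broad middle group came after them. Dh31 (60.1 FPKM), Trissin, NPF, Hug, Mip, AstC, Capa and Nplp1 (49.0 FPKM on average) were 8 genes that each overlapped the next. Another 8, from Dh44 (43.2 FPKM) through Tk, sNPF, ITP, Crz, Nplp4 and Proc to AstA (19.5 FPKM), did so too. Gpb5 (14.2 FPKM) stood alone, above FMRFa, Lk, CCHa1 and SIFa (8.66 to 7.25 FPKM). CNMa, Gpa2 and CCAP had means of 2.79, 2.75 and 1.41 FPKM. All mean levels here are per length of gene. As no source used here states the counting tool or annotation, the order between genes is approximate.

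Several hormones of moulting and metabolism were at the bottom of the order. Akh, the adipokinetic hormone of the corpora cardiaca, ranged from 0.169 to 1.35 FPKM, and RYa from 0.161 to 0.432 FPKM. Eh, the eclosion hormone of a few brain neurons, ranged from 0.0312 to 0.380 FPKM. ETH, the ecdysis-triggering hormone of peripheral Inka cells, and Burs, a subunit of the cuticle-hardening hormone bursicon, were listed at 0 in all 6 libraries. By the library totals, 3 reads would be worth 0.135 to 0.180 FPKM for ETH and 0.159 to 0.212 FPKM for Burs, limits that cover counting error only. These 5 genes had means under 1 FPKM and were not tested, which left 29 members.

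**Figure D1:**
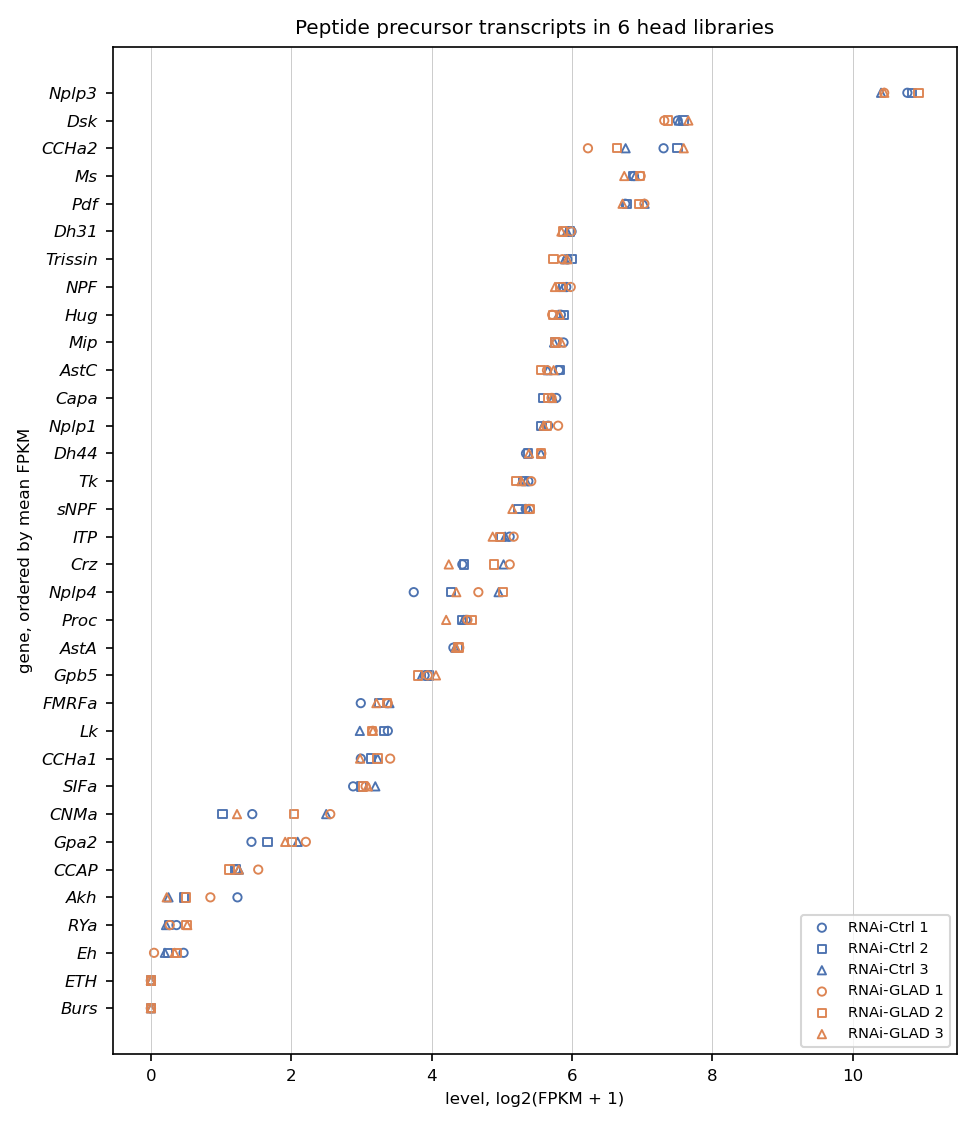
Level of the 34 peptide genes as log2(FPKM + 1) on the horizontal axis, with a row for each gene in order of mean FPKM and a symbol for each of the 6 libraries. Nplp3 stands apart at the top, ETH and Burs are listed at 0, and the symbols of CCHa2, Crz, Nplp4 and CNMa spread more widely than those of their neighbours.

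The precursor genes are short. Their median exon length was 811 bp, against 1718 bp for the 13298 protein-coding genes of the table. Of the 36 listed genes, 16 (44.4%) lay on chromosome arm 3R, which carries 24.4% of those protein-coding genes, and 0 lay on the X, which carries 15.6%. CCHa1 and CCHa2, whose peptides are of the same family, both lay on the minus strand of 3R, at 14092504 to 14096835 and 13389059 to 13395197 in BDGP6, the build of all positions given here. Exons of 31 listed genes overlapped no other gene's exons. Lk, CCAP, SIFa, ITP and ETH overlap a gene on the other strand, and as no source used here states how strand was counted, their reads and those of the partner cannot be told apart.

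Many peptide transcripts were steady across the 6 libraries. For 12 of 29 tested members (41.4%, against 36.5% of all tested genes) the highest library was under 1.2 times the lowest. AstA, whose allatostatin A peptides act on feeding and sleep, varied least, with 18.8, 19.7 and 19.2 FPKM in the controls and 20.02, 19.9 and 19.3 FPKM in the GLAD libraries. Mip, the precursor of myoinhibitory peptides, lay between 52.6 and 57.8 FPKM. The highest library was over 1.5 times the lowest for 6 of 29 members (20.7%, against 24.6% of all tested genes). These were CNMa (4.75 times), CCHa2 (2.60 times), Nplp4 (2.53 times), Gpa2 (2.13 times), Crz (1.87 times) and CCAP (1.61 times).

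With all 6 libraries, the comparison of GLAD with control called 0 of the 29 members (background 0%). The test was limma on log2(FPKM + 1) with Benjamini-Hochberg adjustment over all 9631 genes tested, and each difference is GLAD minus control on that scale, which understates changes of low genes. The smallest adjusted p was 0.999. An unadjusted p under 0.05 was found for 0 members and for 1.16% of all genes, and groups that did not overlap for 0 members and for 4% of all genes. By sign 15 members were positive and 14 negative, with a median difference of 0.00, against 0.01 over all genes. In bulk RNA such differences leave fewer cells and less RNA per cell indistinguishable.

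The intervals show which sizes remain possible with 6 libraries. For 23 of 29 members (79.3%, against 77.3% of all tested genes) the 95% confidence interval lay within 0.5 of 0 on the log2 scale. Gpa2, the alpha subunit of a glycoprotein hormone, had the smallest p among the members, with a difference of 0.31 ± 0.19 (SE, n = 3 per group; limma adjusted p = 0.999). AstC, a somatostatin-like allatostatin (-0.12), Hug, the precursor of a pyrokinin that acts on feeding (-0.09), and Trissin (-0.10) were next. The widest intervals were those of CNMa (-0.90 to 1.47), CCHa2 (-1.29 to 0.56) and Nplp4 (-0.45 to 1.16).

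**Figure D2:**
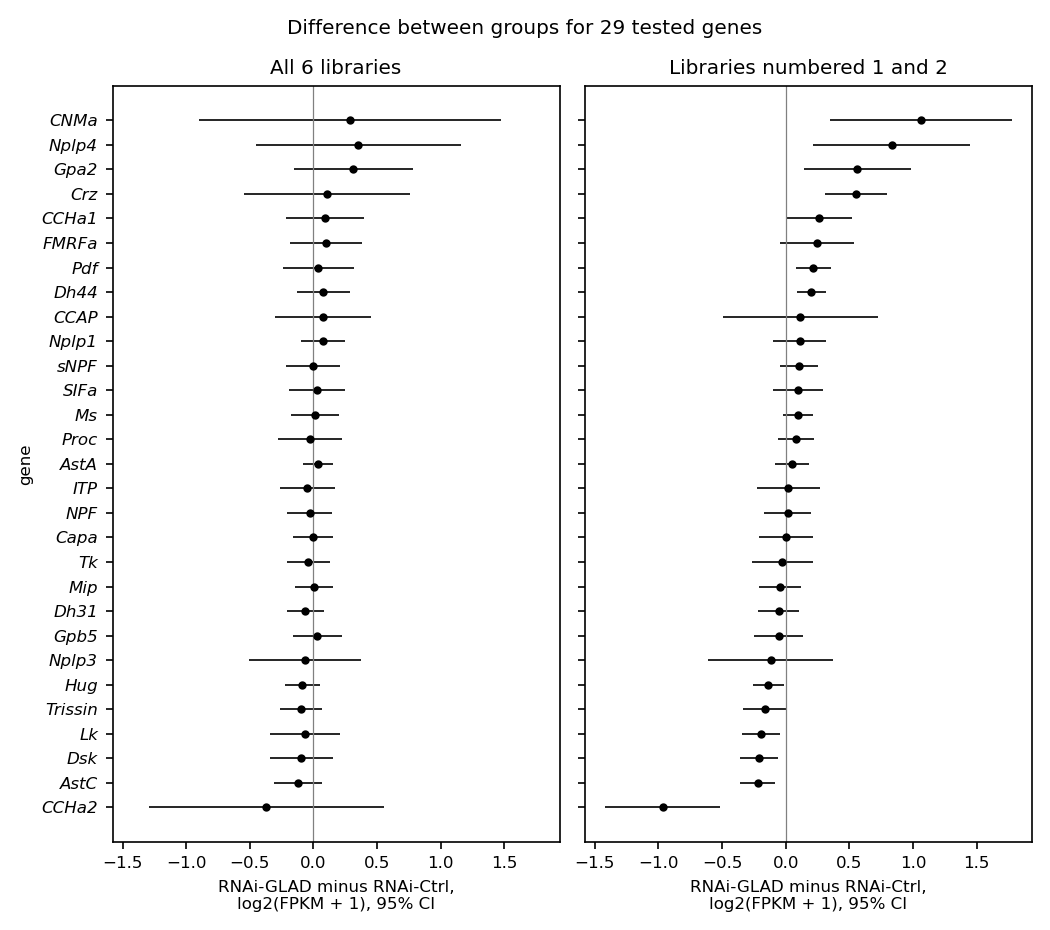
Difference RNAi-GLAD minus RNAi-Ctrl in log2(FPKM + 1) for the 29 tested members, with dots for the estimate and bars for the 95% confidence interval from limma, for all 6 libraries on the left and the 4 libraries numbered 1 and 2 on the right. On the left all intervals include 0, and on the right CCHa2 lies lowest at -0.97 and CNMa highest at 1.06.

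In the 4 libraries numbered 1 and 2, limma called 0 of 29 members, with a background of 5.45% (4.10% higher and 1.36% lower in GLAD). An unadjusted p under 0.05 was reached by 11 members (37.9%, against 24.9% of all genes), 6 of them higher and 5 lower in GLAD. The groups did not overlap for 19 of 29 members (65.5%, against 56.5% of all genes). The median difference was 0.05 for the members and 0.02 for all genes. With 2 libraries per group these tests rest on few samples, and unless said otherwise the differences below are from this comparison.

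Crz and CCHa2 came closest to the threshold. Crz (3R, 14314854 to 14315716) encodes corazonin, a stress and metabolic peptide related to gonadotropin-releasing hormone. Controls 1, 2 and 3 held 20.7, 20.99 and 31.5 FPKM, and GLAD 1, 2 and 3 held 33.6, 28.6 and 17.9 FPKM. GLAD 1 and 2 thus lay above controls 1 and 2, while the library labelled GLAD 3 was the lowest of the 6 and that labelled control 3 lay with GLAD 1 and 2. The difference was 0.55 ± 0.09 (SE, n = 2 per group, higher in 2 of 2 GLAD libraries; limma adjusted p = 0.0534). Limma called Crz with a pseudocount of 0.1 and under the 3 scalings, with a smallest adjusted p of 0.0455, and with a mean of at least 5 FPKM. Crz was not called with a pseudocount of 0.5, without a filter, without the trend or with the replicate block. Without each library the difference ranged from 0.44 to 0.66. With all 6 libraries the difference was 0.11 ± 0.27.

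CCHa2 (3R, 13389059 to 13395197) lay in the opposite direction. Controls 1, 2 and 3 contained 157, 180.2 and 108 FPKM of it, and GLAD 1, 2 and 3 contained 73.9, 98.9 and 192 FPKM. GLAD 1 and 2 were the lowest libraries, and the library labelled GLAD 3 was the highest. In libraries 1 and 2 the GLAD mean was 0.512 times the control mean, a difference of -0.97 ± 0.16 (SE, n = 2 per group, lower in 2 of 2 GLAD libraries; limma adjusted p = 0.0573). Limma called CCHa2 with the replicate block (adjusted p = 0.0326) and with a mean of at least 5 FPKM. CCHa2 was not called under the other pseudocounts, the 3 scalings, without a filter or without the trend. Without each of the 4 libraries the difference ranged from -1.18 to -0.76. With all 6 libraries the difference was -0.37 ± 0.38, and it ranged from -0.75 without the library labelled GLAD 3 to -0.073 without GLAD 1.

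Markers of fat body and gut, which also express CCHa2, are set beside it. The 6 fat body markers, of which 0 were listed at 0, summed to 1261, 711 and 1170 FPKM in the controls and to 623, 836 and 905 FPKM in GLAD. The 5 midgut markers summed to 162, 186 and 156 FPKM and to 419, 149 and 67.4 FPKM, and 1 of them was listed at 0 somewhere. The yolk protein genes set control 1 apart, with 296 FPKM of Yp1 against 0.735 to 3.28 FPKM in the other libraries and 343 FPKM of Yp3 against 53.5 to 61.2 FPKM. The lipoprotein gene apolpp was at 453, 530 and 553 FPKM in the controls and at 357, 468 and 592 FPKM in GLAD. Its lowest and highest values lay in the libraries where CCHa2 had its own. Yp1, Yp2 and Yp3 shared the highest libraries of CCHa2, controls 1 and 2 and that labelled GLAD 3. In these libraries the fat body marker fit and the midgut marker Amy-p were instead lowest. Amy-p was at 46.3 to 70.6 FPKM there and at 128 to 149 FPKM in the others. Lsp2 was lowest in controls 1 and 2, at 63.3 and 112 FPKM. The other midgut markers followed neither pattern. The part of fat body and gut in the level of CCHa2 was not tested. Of 6 markers of peptidergic cells 5 were in the table, led by the insulin-like peptide gene Ilp2, and summed to 281, 276 and 240 FPKM in the controls and to 243, 234 and 263 FPKM in GLAD. As for CCHa2, controls 1 and 2 and the library labelled GLAD 3 were the highest in this sum and in Ilp2. Ilp2 was at 139 to 146 FPKM there and at 109 to 114 FPKM in the others. The other peptidergic markers did not share that order, and dimm was lowest in the library labelled GLAD 3, at 0.366 FPKM. The sum of the 5 glial markers had the same highest libraries, with 1174, 1136 and 1039 FPKM in the controls and 1063, 1100 and 1123 FPKM in GLAD. That sum was led by Gs2 (689 to 779 FPKM), the only glial marker with these highest libraries. In repo, moody, Eaat1 and nrv2, GLAD 1 lay above control 2 or above the library labelled GLAD 3. An opposite sign in the libraries numbered 3 was found for 75.1% of all genes. Of 5 neuron markers 4 were in the table, and summed to 755, 734 and 690 FPKM in the controls and to 698, 711 and 691 FPKM in GLAD. Controls 1 and 2 and GLAD 2 were the highest in this sum. The part of peptidergic cells, glia and neurons in the result was not tested.

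**Figure D3:**
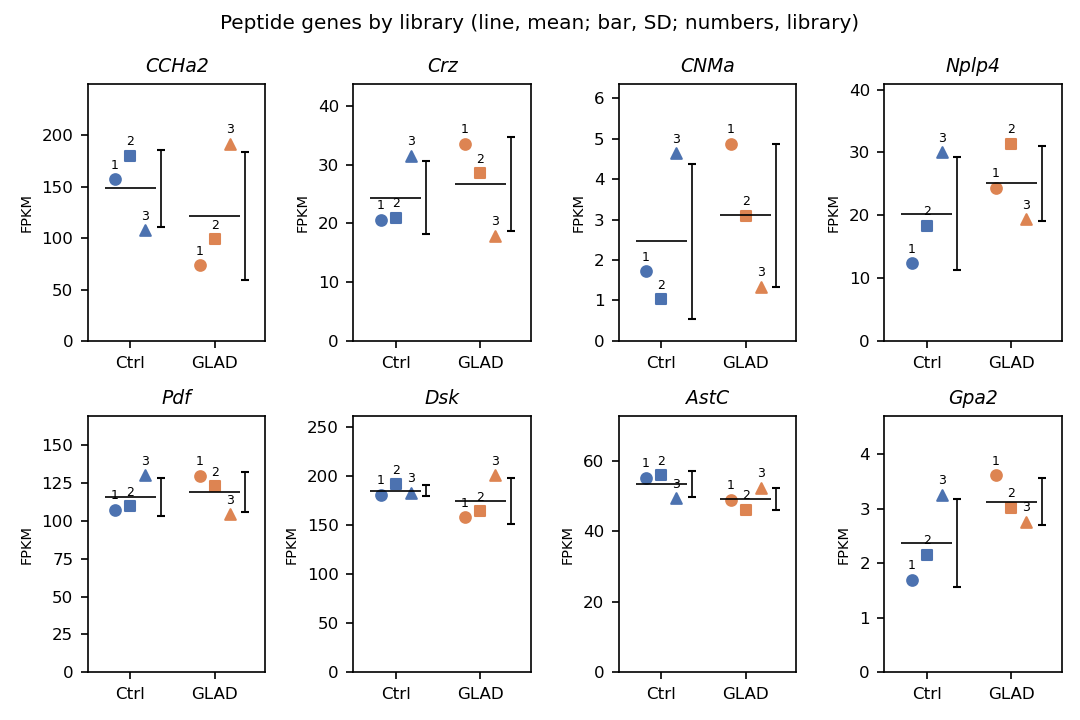
FPKM on the vertical axis, from 0, for 8 peptide genes in each library, RNAi-Ctrl in blue and RNAi-GLAD in orange, with library numbers beside the points, lines for the mean and bars for the SD (n = 3). For Crz, CNMa, Nplp4 and Pdf the library labelled RNAi-GLAD 3 lies below that labelled RNAi-Ctrl 3, while libraries 1 and 2 have the reverse order.

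Of the 11 genes of clock, sleep, feeding and stress circuits, all tested, 6 (54.5%, against 24.9% of all genes) had an unadjusted p under 0.05, with Crz, Dh44 and Pdf on the higher side and Dsk, Lk and Hug on the lower. Pdf (3R, 26455462 to 26456141) was measured at 107, 109 and 130.0 FPKM in controls 1, 2 and 3 and at 129.7, 123 and 104 FPKM in GLAD 1, 2 and 3, a difference of 0.22 ± 0.05 (limma adjusted p = 0.0995). For Dh44, a diuretic hormone related to corticotropin-releasing factor, the controls gave 39.6, 40.3 and 46.1 FPKM and the GLAD libraries 46.3, 45.96 and 40.8 FPKM (0.20 ± 0.04, limma adjusted p = 0.0823). In both genes the library labelled control 3 lay near GLAD 1 and 2, and that labelled GLAD 3 below them.

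The genes on the lower side differed by small amounts. Dsk (3R, 4189692 to 4190260) had 181, 192 and 183 FPKM in the controls and 158, 164 and 201 FPKM in GLAD (-0.21 ± 0.05, limma adjusted p = 0.117). Lk, which encodes leucokinin, a regulator of water balance and meal size, had 9.38, 9.02 and 6.87 FPKM against 7.93, 7.87 and 7.96 FPKM (-0.20 ± 0.05, limma adjusted p = 0.131). For Hug the values were 56.3, 58.01 and 54.9 FPKM in controls and 51.6, 52.1 and 55.6 FPKM in GLAD (-0.14 ± 0.04, limma adjusted p = 0.166). None of the 3 passed over all genes. In Dsk and Hug, GLAD 1 and 2 were the lowest libraries, and in Dsk the library labelled GLAD 3 was the highest.

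The other 5 circuit peptides did not reach an unadjusted p under 0.05. NPF, the neuropeptide Y-like peptide that promotes feeding, had 59.5, 57.5 and 57.7 FPKM in the controls and 62.2, 56.1 and 53.1 FPKM in GLAD, with an interval of -0.17 to 0.20. Dh31, a calcitonin-like diuretic hormone that acts on sleep, had 62.7, 61.6 and 59.9 FPKM and 62.4, 57.4 and 56.6 FPKM, with an interval of -0.21 to 0.11. The groups overlapped for both. The short neuropeptide F gene sNPF lay between 34.5 and 41.2 FPKM, the ion transport peptide gene ITP between 28.2 and 34.95 FPKM, and SIFa, whose peptide acts on courtship and sleep, between 6.37 and 8.17 FPKM.

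Of 6 clock genes, vri, per and tim were highest in both libraries numbered 3. The transcription factor gene vri was at 9.87, 10.9 and 31.0 FPKM in controls 1, 2 and 3 and at 13.1, 15.7 and 36.7 FPKM in GLAD 1, 2 and 3. The period gene per gave 9.48, 10.3 and 15.6 FPKM, then 9.95, 9.99 and 19.8 FPKM, and tim 23.6, 23.9 and 34.5 FPKM, then 23.1, 20.8 and 43.9 FPKM. Pdp1 (77.5 to 84.6 FPKM), Clk (14.6 to 16.4 FPKM) and cry (175 to 207 FPKM) did not share this order. Pdf, by contrast, was at 130 FPKM in control 3 and 104 FPKM in GLAD 3. The time of day of collection is not stated in the sources used here, and its part in the peptide levels was not tested.

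Of 10 brain-gut and muscle-acting peptides 9 were tested, and 2 (22.2%, against 24.9% of all genes) had an unadjusted p under 0.05, CCHa2 and AstC, both on the lower side. AstC (2L, 11076165 to 11081399) showed 55.2, 55.96 and 49.4 FPKM in the controls and 48.97, 46.2 and 52.4 FPKM in GLAD (-0.22 ± 0.05, limma adjusted p = 0.0976), and controls 1 and 2 were its highest libraries. Ms showed 117, 116 and 118 FPKM in the controls and 125, 124 and 106 FPKM in GLAD, so that GLAD 1 and 2 were the highest and the library labelled GLAD 3 the lowest (0.10 ± 0.04, limma adjusted p = 0.256). Tk, the tachykinin precursor, showed 40.6, 38.5 and 39.6 FPKM and 41.8, 35.97 and 37.8 FPKM, and its groups overlapped.

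Other genes of this class were CCHa1, FMRFa and Proc. For CCHa1 the controls read 6.95, 7.76 and 8.39 FPKM and the GLAD libraries 9.62, 8.38 and 6.89 FPKM (0.26 ± 0.09, limma adjusted p = 0.202). Its difference had the sign opposite to that of its relative CCHa2, and neither passed. FMRFa, which encodes FMRFamide-related peptides, read 6.94, 8.55 and 9.54 FPKM and 9.37, 9.28 and 8.27 FPKM (0.25 ± 0.11, limma adjusted p = 0.252). Proc, the precursor of the muscle-stimulating peptide proctolin, lay between 17.5 and 22.7 FPKM. The library labelled GLAD 3 was the lowest for CCHa1 and Proc.

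Of the 6 precursors named from sequence or peptidomics 5 were tested, and CNMa and Nplp4 (40%, against 24.9% of all genes) had an unadjusted p under 0.05, both on the higher side. CNMa (3L, 1850915 to 1855591), which encodes the cyclic CNMamide peptide, had 1.72, 1.03 and 4.65 FPKM in controls 1, 2 and 3 and 4.88, 3.10 and 1.34 FPKM in GLAD 1, 2 and 3. In libraries 1 and 2 the GLAD mean was 2.90 times the control mean, a difference of 1.06 ± 0.26 (n = 2 per group; limma adjusted p = 0.106). The libraries numbered 3 had the reverse order. For Nplp4 (2L, 2008414 to 2009072) the controls held 12.4, 18.4 and 29.99 FPKM and the GLAD libraries 24.4, 31.4 and 19.4 FPKM, a difference of 0.83 ± 0.22 (limma adjusted p = 0.124).

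Nplp3, Nplp1 and Trissin differed less. The GLAD values of Nplp3 in libraries 1 and 2 lay on either side of the control values, with an interval of -0.61 to 0.37. Nplp1 had 49.6, 46.4 and 47.1 FPKM in the controls against 54.8, 49.03 and 47.4 FPKM in GLAD, and its groups overlapped. Trissin, which encodes a cysteine-rich peptide, had 60.1, 62.6 and 58.6 FPKM against 57.2, 52.3 and 60.04 FPKM (-0.16 ± 0.06, limma adjusted p = 0.221), with GLAD 1 and 2 the lowest libraries.

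Of the 9 endocrine and moulting hormones 4 were tested, and 1, Gpa2 (25%, against 24.9% of all genes), had an unadjusted p under 0.05. Gpa2 lies on an unplaced scaffold and had 1.70, 2.16 and 3.26 FPKM in the controls and 3.62, 3.02 and 2.77 FPKM in GLAD (0.56 ± 0.15, limma adjusted p = 0.127). Gpb5, the beta subunit that pairs with it, had 13.9, 14.6 and 13.5 FPKM and 14.4, 12.9 and 15.7 FPKM (-0.06 ± 0.07, limma adjusted p = 0.688). Controls 1 and 2 were the lowest libraries for Gpa2, and GLAD 2 was the lowest for Gpb5. Capa, whose peptides act on the renal tubules, lay between 47.3 and 53.7 FPKM, with an interval of -0.21 to 0.21. CCAP, the crustacean cardioactive peptide gene, had 1.32, 1.31 and 1.38 FPKM and 1.89, 1.17 and 1.38 FPKM, with GLAD 1 above the other libraries.

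The libraries numbered 3 gave a separate look at the same genes, with 1 library per group and hence no test. For 25 of the 29 tested members (86.2%) the sign of GLAD 3 minus control 3 was opposite to that in libraries 1 and 2, against 75.1% of all 9661 genes. The exceptions were AstA, Nplp1, Tk and Dh31. In log2(FPKM + 1), CNMa stood at 1.06 in libraries 1 and 2 and at -1.27 in the libraries numbered 3. CCHa2 stood at -0.97 and 0.83, Crz at 0.55 and -0.78, Nplp4 at 0.83 and -0.60, and Pdf at 0.22 and -0.31. The 5 genes thus had opposite signs in these sets of libraries.

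**Figure D4:**
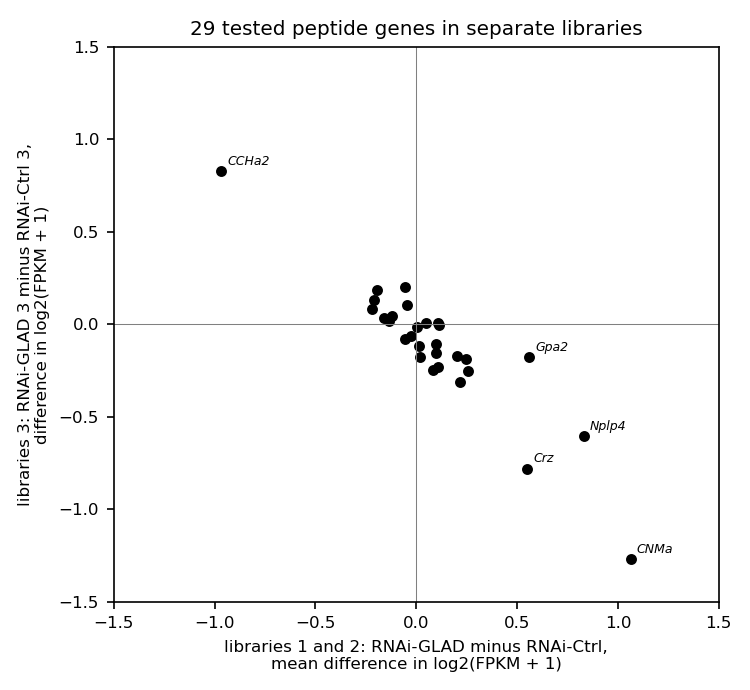
Difference RNAi-GLAD minus RNAi-Ctrl in log2(FPKM + 1) for the 29 tested members, as the mean difference in libraries 1 and 2 on the horizontal axis and as the single difference of the library labelled RNAi-GLAD 3 from that labelled RNAi-Ctrl 3 on the vertical axis. Of the 29 points, 25 lie in the quadrants of opposite sign, with CCHa2 at upper left and CNMa at lower right.

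Levels were also taken over the members as a whole. The mean of log2(FPKM + 1) over the 29 tested members was 4.98, 5.002 and 5.08 for controls 1, 2 and 3 and 5.10, 5.05 and 4.97 for GLAD 1, 2 and 3. All 34 members summed to 3048, 3157 and 2641 FPKM in the controls and to 2648, 3197 and 2701 FPKM in GLAD, a sum made up largely by Nplp3, in which controls 1 and 2 and GLAD 2 were the highest. Without Nplp3 the members summed to 1294, 1318 and 1288 FPKM in the controls and to 1253, 1236 and 1305 FPKM in GLAD. In the mean and in the sum without Nplp3, but not in the full sum, the library labelled GLAD 3 lay nearer to controls 1 and 2 than GLAD 1 and 2 did.

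Receptors of these peptides were measured as 35 of 37 listed genes, of which 31 were tested, while AstA-R1 and Gyc76C matched no row and are not analysed here. Mean receptor levels were below those of their ligands in 27 of 31 chosen pairs, with a median ratio of 5.68 in FPKM, a level per length. These pairs covered 25 ligands, some of them used more than once, and ratios between different genes are approximate. The receptor genes ETHR, rk, Lgr1 and PK1-R were in none of the pairs, so the count holds for the chosen pairs only. ETH, Burs and Gpa2 had lower means than ETHR, rk and Lgr1 in turn. Gpb5, the subunit that pairs with Gpa2, had a higher mean than Lgr1. The ratio was 199 for Capa over CapaR, 77.0 for CCHa2 over CCHa2-R, 4.43 for Pdf over Pdfr and 2.75 for Crz over CrzR. That of Capa rests on a receptor at only 0.148 to 0.375 FPKM. More receptor than ligand was found in 4 of the chosen pairs. These were CNMa over CNMaR (0.517), SIFa over SIFaR (0.931), RYa over RYa-R (0.724) and Akh over AkhR (0.0151). AkhR acts in the fat body.

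Limma called 0 of 31 receptors with all 6 libraries (background 0%), 0 of them at an unadjusted p under 0.05. Groups did not overlap for MsR2 and PK2-R1, or 6.45% of receptors against the background of 4%. In libraries 1 and 2 limma called 0 receptors (background 5.45%), with 4 (12.9%, against 24.9%) at an unadjusted p under 0.05. Proc-R, the proctolin receptor, was at 8.75, 9.20 and 12.4 FPKM in controls 1, 2 and 3 and at 11.3, 11.4 and 9.85 FPKM in GLAD 1, 2 and 3 (0.31 ± 0.05, limma adjusted p = 0.0592). For Pdfr, the PDF receptor, the controls gave 28.98, 27.9 and 24.9 FPKM and the GLAD libraries 24.5, 23.2 and 29.5 FPKM (-0.25 ± 0.05, limma adjusted p = 0.0873). Pdfr was low in GLAD 1 and 2 and in the library labelled control 3, the 3 libraries where Pdf was high. Opposite signs in the libraries numbered 3 were found for 75.1% of all 9661 genes, and a link between Pdf and Pdfr was not tested.

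SPR and TkR99D were the other receptors of that group. SPR, which binds Mip peptides and the sex peptide, had 15.8, 14.9 and 14.4 FPKM in the controls against 18.01, 17.6 and 14.2 FPKM in GLAD (0.20 ± 0.05, limma adjusted p = 0.114). TkR99D, a tachykinin receptor, had 8.48, 8.91 and 7.01 FPKM against 7.57, 6.21 and 8.87 FPKM (-0.30 ± 0.10, limma adjusted p = 0.184), a difference that became -0.18 without GLAD 2. Receptors of the variable ligands are given by range: CrzR lay between 8.30 and 10.2 FPKM, CCHa2-R between 1.47 and 2.11 FPKM, and CNMaR between 4.89 and 5.73 FPKM. In libraries 1 and 2 the groups overlapped for these 3 receptors.

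Enzymes and vesicle proteins that make, release and degrade peptides were in the table as 22 of 24 listed genes, of which 20 were tested, while Phm and Pal1 are not analysed here. The convertase gene amon ranged from 89.2 to 101 FPKM, its helper 7B2 from 425 to 530.0 FPKM, and Pal2, an enzyme of the amidation of peptide ends, from 228 to 242 FPKM. The transcription factor gene dimm, which drives the peptidergic cell programme, ranged from 0.366 to 0.698 FPKM and was not tested. With all 6 libraries limma called 0 of the 20 (background 0%), 0 of them at an unadjusted p under 0.05. Syt7, a synaptotagmin of vesicle release, was the 1 gene of the 20 (5%, against 4% of all genes) whose groups did not overlap, with 48.3, 46.7 and 45.3 FPKM in the controls and 43.4, 43.4 and 41.3 FPKM in GLAD (-0.13 ± 0.05, limma adjusted p = 0.999). In libraries 1 and 2 limma called 2 of 20 (10%, against a background of 5.45%), with 8 (40%, against 24.9%) at an unadjusted p under 0.05.

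Both called genes encode neprilysins, membrane metallopeptidases that can cleave released peptides, and they differed in opposite directions. The neprilysin genes Nep1 and Nep2, also tested, had differences of 0.02 ± 0.08 and -0.03 ± 0.14 (limma adjusted p = 0.895 and 0.928). Nep3 fell, from 26.6 and 26.7 FPKM in controls 1 and 2 to 18.5 and 19.3 FPKM in GLAD 1 and 2 (-0.47 ± 0.05, limma adjusted p = 0.0235). The libraries labelled control 3 and GLAD 3 held 18.3 and 27.7 FPKM. Nep4 rose, from 49.6 and 52.9 FPKM to 67.2 and 64.6 FPKM (0.36 ± 0.06, limma adjusted p = 0.0494), with 62.3 and 46.0 FPKM in the libraries labelled control 3 and GLAD 3. Both genes thus had the reverse order in the libraries numbered 3, and with all 6 libraries their differences were -0.12 ± 0.21 and 0.10 ± 0.17. Neither call held when any of the 4 libraries was left out: the adjusted p of Nep3 became 0.194 and 0.189 without control 1 and 2 and 0.0537 and 0.0688 without GLAD 1 and 2, and that of Nep4 became 0.264, 0.203, 0.113 and 0.111. The call of Nep4 also ended under the 3 other scalings (0.0548 to 0.0646) and without a filter, and both calls ended without the mean-variance trend.

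The other genes of this list with an unadjusted p under 0.05 were QC and isoQC on the higher side and Fur2, Cadps, Syt7 and Sytalpha on the lower. The glutaminyl cyclase gene QC, whose enzyme closes the amino end of some peptides, had 27.9, 26.4 and 33.1 FPKM in the controls and 33.5, 36.8 and 28.5 FPKM in GLAD (0.36 ± 0.07, limma adjusted p = 0.0673). Its relative isoQC had 10.1, 10.3 and 11.8 FPKM and 12.3, 12.5 and 10.98 FPKM (0.26 ± 0.05, limma adjusted p = 0.0651). For both, GLAD 1 and 2 were the highest libraries. Among genes that cut or trim precursors, the interval was -0.20 to 0.10 for amon, -0.14 to 0.12 for the carboxypeptidase gene svr and -0.16 to 0.12 for Pal2.

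**Figure D5:**
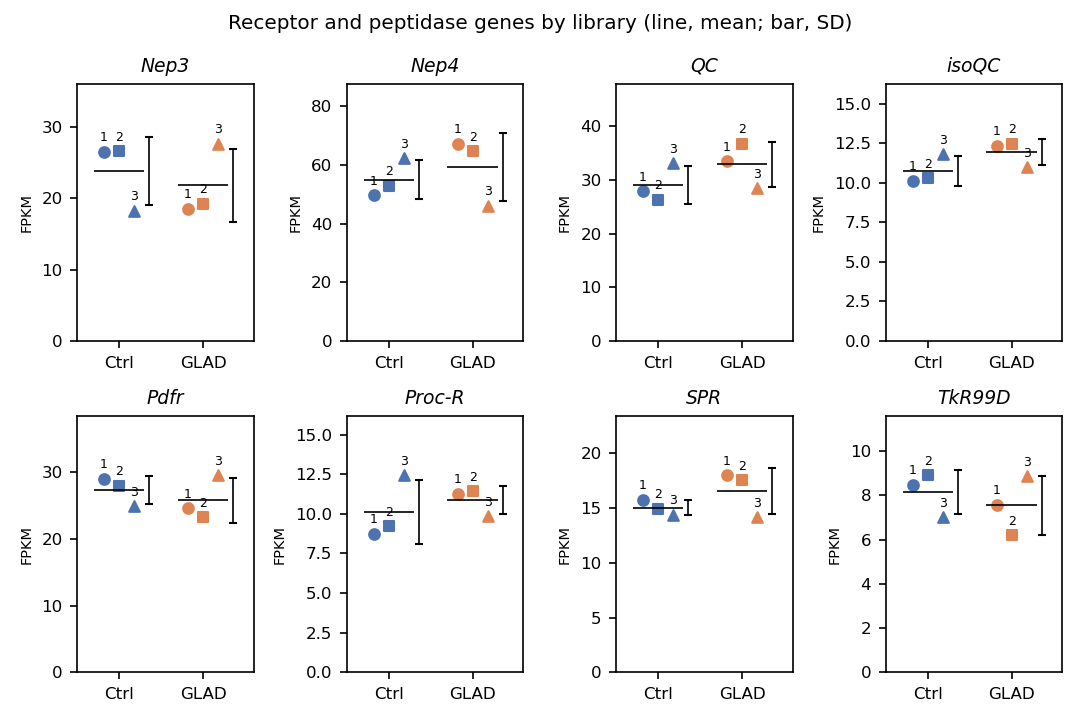
FPKM on the vertical axis, from 0, for 4 peptidase and cyclase genes and 4 receptor genes in each library, RNAi-Ctrl in blue and RNAi-GLAD in orange, with library numbers beside the points, lines for the mean and bars for the SD (n = 3). Nep3 is low in RNAi-GLAD 1 and 2 and in the library labelled RNAi-Ctrl 3, and Nep4 and Proc-R are high there.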

How the data were processed

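The authors deposited a table of FPKM values, fragments normalised for gene length and library size, with a column per library. The submitters' processing notes name TopHat, BDGP6 and dm6 without versions; no source used here states the counting tool, strand setting or annotation. Reads were paired-end and 150 bp long, per the labels' protocols.

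Symbols, exon lengths and positions came from Ensembl release 115 (BDGP6); 15002 of 15682 FlyBase IDs matched. Library totals were read from steps between low values of genes with a single transcript. Of values worth under 20 reads, 74.9% to 78.2% lay within 0.05 of a whole read (10% by chance), so the totals are approximate.

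log2(FPKM + 1) of genes with a mean of at least 1 FPKM, not scaled further, was fitted with limma 3.58.1 in R 4.3.3 (lmFit, eBayes with trend, two-sided, Benjamini-Hochberg, threshold 0.05). The procedure was tested on simulated data whose spread was taken from libraries 1 and 2 alone. That test therefore does not show what the fit of all 6 libraries could detect. The members, lists, tests and the comparison of 4 libraries were chosen with earlier results of these data known. Values in every library are given for members under the threshold, the 8 most abundant, the 2 with the smallest p in each class and comparison, and those whose highest library was over 1.5 times the lowest. Receptor and processing genes named were those called or the 4 with the smallest p in libraries 1 and 2. Clock genes, steady enzymes, Syt7 and further receptors and members were chosen after seeing their values. Alternatives were pseudocounts of 0.1 and 0.5, no filter or a mean of 5 FPKM, 3 scalings, no trend, a replicate block, a threshold of 0.01, and libraries left out singly or by number.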

Additional observations from a re-analysis of the deposited data

How the results depend on the processing

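With all 6 libraries the count of called peptide genes and receptors stayed at 0 under the pseudocounts, filters, scalings, trend, block, threshold and left-out libraries tried, and that of processing genes was 0 except for 2 (Nep3 and Nep4) without both libraries numbered 3. In libraries 1 and 2 the count of called peptide genes, 0, became 1 (Crz) with a pseudocount of 0.1 and with median-of-ratios, trimmed-mean or quantile scaling, 2 (CCHa2 and Crz) with a mean of at least 5 FPKM, 2 (CCHa2, adjusted p = 0.0326, and Nplp4, adjusted p = 0.0339, by limma) with the replicate block, and ranged from 0 to 2 without each library. The receptor count, 0, became 1 (Proc-R) with a mean of at least 5 FPKM. The processing count, 2, became 1 (Nep3) without a filter, with median-of-ratios, trimmed-mean or quantile scaling and with the replicate block. It was 0 without the trend, at the threshold of 0.01, with the crossed block and without each library (range 0 to 0). The cause of these shifts was not tested. Over all genes the 527 calls became 254 without a filter, 165 without the trend and 1 without RNAi-Ctrl 1 or without RNAi-Ctrl 2, 329 without RNAi-GLAD 1 and 149 without RNAi-GLAD 2. Among 6-library differences, that of Crz (0.11) reversed to -0.18 without both libraries numbered 1 and -0.052 without both numbered 2, and ranged from -0.075 to 0.36 without each library. That of CNMa (0.29) reversed to -0.13 and -0.080, and ranged from -0.031 to 0.71. Without each library the 6-library differences of CCHa2 ranged from -0.75 to -0.073, of Gpa2 from 0.17 to 0.50 and of Nplp4 from 0.063 to 0.67. Deviations from the group means correlated between libraries of the same number at -0.354, -0.404 and -0.460. The reversal in the libraries numbered 3 enters these values, so they cannot show whether a number marks a batch. Libraries of the same number were not treated as paired, as the labels name no batch. The correlation within libraries 1 and 2 was -0.354, and crossing the numbers there, chosen after seeing the data, gave 17 calls over all genes and 0 among the peptide genes. Depth limits RYa, Eh and Akh, whose values rest on few reads.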
